A study of Rattus norvegicus with 19 samples.

Results

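Transcriptionally active putative enhancers (TAPEs) are intergenic stretches of open chromatin that gave RNA from both DNA strands. The TAPEs described here are those that lie just upstream of a gene: the centre of the TAPE was under 10 kb from the nearest transcription start site, and it sat on the side of that start facing away from the gene. Of 27538 TAPEs in the deposited table, 1898 met this rule, and they are called start-proximal TAPEs below. Neither the RNA level of a TAPE nor the size of its correlation with a gene chose it. The table pairs TAPEs only with genes that had reads in some library, since the authors removed the rest, so the nearest gene here is the nearest of those, and a silent gene may lie closer. Their 1764 nearest genes included 1638 with a single start-proximal TAPE, 119 with 2, 6 with 3 and 1, Cygb, with 4. TAPEs beside the same gene share that gene's RNA value and are not independent of each other.

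Total RNA was sequenced from cultured neurons of the cortex, hippocampus or striatum of embryonic day 18 Sprague-Dawley rats, kept for 11 days in vitro. Cultures were given vehicle or KCl for 1 h, since potassium depolarises neurons and calls up activity-dependent transcription. By their titles there were 3 libraries for each region and treatment, except striatal vehicle with 4, giving 19 libraries. The study's supplementary methods instead list 3 vehicle and 4 KCl files for the striatum. The titles were followed here, and every striatal KCl comparison below rests on them. The labels name no genetic change in any group. The sample labels state KCl at 25 mM and the text of the series states 10 mM. The study's methods call the replicates biological, but neither they nor the labels say whether these came from separate cultures or litters, so the p-values below measure the spread between these libraries only. The groups are mixed primary cultures, so more cells of a type and more RNA per cell cannot be told apart.

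Enhancers are stretches of DNA that bind transcription factors and raise transcription from a promoter, often over long distances. Many active enhancers are themselves transcribed in both directions into enhancer RNA (eRNA), which is short-lived and present at low levels. A promoter, by contrast, lies at the start site itself, and it too can be transcribed away from the gene.

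The start sites that these TAPEs lie beside are shown for 4 example genes whose TAPEs are described below: a cortical, a hippocampal and a striatal one, and one that rose with KCl. Each sequence is the 250 bases before the start, 5′ to 3′ on the gene's own strand, from RefSeq on build GRCr8, which is not the Rn6 build of the TAPE positions. Capitals mark the letters CANNTG, the E-box read by basic helix-loop-helix factors, or TGANTCA. The latter is a relaxed form, with any middle base, of the AP-1 site read by Fos and Jun proteins. The Mpped1 window (chr7:116824504-116824753, plus strand) lies beside a TAPE that was highest in the cortex.
Mpped1: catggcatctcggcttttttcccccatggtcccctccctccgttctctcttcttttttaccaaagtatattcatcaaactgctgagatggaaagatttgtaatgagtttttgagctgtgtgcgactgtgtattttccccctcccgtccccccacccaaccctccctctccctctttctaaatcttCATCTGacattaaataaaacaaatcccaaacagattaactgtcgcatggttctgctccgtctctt
The Npy2r window (chr2:170203101-170203350, minus strand) belongs to the neuropeptide Y receptor Y2 gene, with a TAPE highest in the hippocampus.
Npy2r: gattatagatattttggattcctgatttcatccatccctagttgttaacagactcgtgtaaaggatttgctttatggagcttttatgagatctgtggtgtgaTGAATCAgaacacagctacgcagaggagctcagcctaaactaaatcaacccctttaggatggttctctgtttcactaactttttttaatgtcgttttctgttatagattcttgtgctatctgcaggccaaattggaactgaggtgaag
The Rpp25 window (chr8:66803012-66803261, plus strand) lies beside a TAPE that was highest in the striatum.
Rpp25: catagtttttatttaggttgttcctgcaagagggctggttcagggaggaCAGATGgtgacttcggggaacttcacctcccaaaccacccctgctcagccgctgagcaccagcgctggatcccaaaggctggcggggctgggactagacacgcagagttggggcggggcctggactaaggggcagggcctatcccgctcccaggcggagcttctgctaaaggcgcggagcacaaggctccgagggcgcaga
The Hook2 window (chr19:40069046-40069295, minus strand) lies beside a TAPE that was higher after KCl in the striatum.
Hook2: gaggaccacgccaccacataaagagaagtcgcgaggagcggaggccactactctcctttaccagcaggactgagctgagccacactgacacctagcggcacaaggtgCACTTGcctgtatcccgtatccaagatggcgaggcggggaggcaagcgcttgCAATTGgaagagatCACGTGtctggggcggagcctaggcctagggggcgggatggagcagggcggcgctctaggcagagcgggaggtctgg
The E-box letters occurred 1 time in Mpped1, 0 times in Npy2r, 1 time in Rpp25 and 3 times in Hook2, and the AP-1 letters occurred 1 time, in Npy2r. None of the 4 windows held TGACGTCA, the cyclic AMP response element (CRE). All 3 motifs read the same on both strands. Among the RefSeq windows of all 27457 genes with a window, 65.2% held an E-box, 6.36% the AP-1 letters and 1.7% a CRE. Among the 1308 windows found for nearest genes of start-proximal TAPEs the shares were 62.2%, 5.43% and 2.52%, and the median GC content was 59.6% against 52% for all windows. A matched word is a description of the letters in the window, not a binding site.

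For 13 start-proximal TAPEs the nearest annotated gene was a microRNA, a short RNA that lowers the output of messenger RNAs matching its seed (bases 2 to 8). Mature sequences were sought only for the 6 of these TAPEs that were tested (a level set out below). Those that the RefSeq table held are printed. Of the 6 TAPEs, 4 differed between regions, as described below. The printed sequences include some beside TAPEs that did not differ, and lack some beside TAPEs that did. Capitals mark the seed.
miR-6329: aAUGUGACucagcuaucugaaca
miR-135b-5p: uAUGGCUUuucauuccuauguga
miR-135b-3p: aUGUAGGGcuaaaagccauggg
miR-3074: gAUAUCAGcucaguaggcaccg
miR-142-5p: cAUAAAGUagaaagcacuacu
miR-142-3p: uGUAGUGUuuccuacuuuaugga
The 6 mature sequences had 6 distinct seeds, and no seed was shared between any pair of them.

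RNA level was measured as CPKM, the read number divided by the length of the TAPE and by the reads mapped in the library (the RPKM unit). Library totals worked out from the steps between CPKM values were 46.4 to 72.5 M reads (M stands for 1000000). The study's methods state a lower range of reads per sample, and the cause of this difference was not tested. The CPKM values came out as whole reads for 100% of values, within 0.01 of a read. A TAPE was tested when its mean over the 19 libraries was at least 0.05 CPKM. Tests were made with limma on log2(CPKM + 0.05) over all 1870 TAPEs that passed, and a call means an adjusted p under 0.05. Every fold change below is on that scale, which understates the change of weak TAPEs. The tissue of origin was checked on the genes paired with TAPEs: 9 of 9 striatal, 7 of 8 cortical and 6 of 7 hippocampal identity genes had their highest level in their own region, the exceptions being Bhlhe22 and Wfs1. Genes of glial and vascular cells were uneven too, with 10 of 15 astrocyte and 10 of 14 oligodendrocyte lineage genes highest in the cortex, and 8 of 9 microglial genes and 5 of 7 endothelial genes highest in the hippocampus; their part in the region differences below was not tested. After KCl, 1 astrocyte gene was higher and 1 was lower, and no gene of the other 3 lists passed the test.

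The title of cortical vehicle replicate 3 names the cortex while its tissue label names the striatum. It was kept with the cortex. Over the 1870 tested TAPEs its log2 values had a correlation of 0.833 with the mean of the other cortical libraries, 0.675 with the hippocampal mean and 0.511 with the striatal mean. Its TAPE near Mpped1 was at 1.19 CPKM, the highest of the cortical libraries, while the striatal vehicle libraries read 0.335, 0.378, 0.432 and 0.516 CPKM. Without it, 116 start-proximal TAPEs differed between regions (121 with it), 9 were selective for the cortex (11 with it), and 331 nearest genes passed the test for KCl described below (386 with it), the fewest when any 1 library was left out.

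Start-proximal TAPEs were weakly transcribed, but more of them reached the level at which they could be tested than of TAPEs in general. Of 1898, 281 passed the filter (14.8%), against 1870 of 27538 TAPEs (6.79%). Their median mean CPKM was 0.011 against 0.00707 for all TAPEs, the highest was 0.915, and 90.5% of them were at 0 in some library. Their median distance to the start was 6248.5 bp (1704 to 9995 bp). They were of ordinary length, with a median of 1769 bp against 1807 bp for all TAPEs. They lay in gene-dense neighbourhoods, with a median of 22 paired genes within 1 Mb against 10. The share that could be tested was 20.3% under 3 kb (41 of 202), 18.6% from 3 to 5 kb, 14.9% from 5 to 7.5 kb and 10.6% from 7.5 to 10 kb. TAPEs 10 to 20 kb before a start reached 9.3% (173 of 1860), and the 239 TAPEs under 10 kb beyond the other end of a gene reached 25.5%. These shares are descriptions and their differences were not tested.

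**Figure D1:**
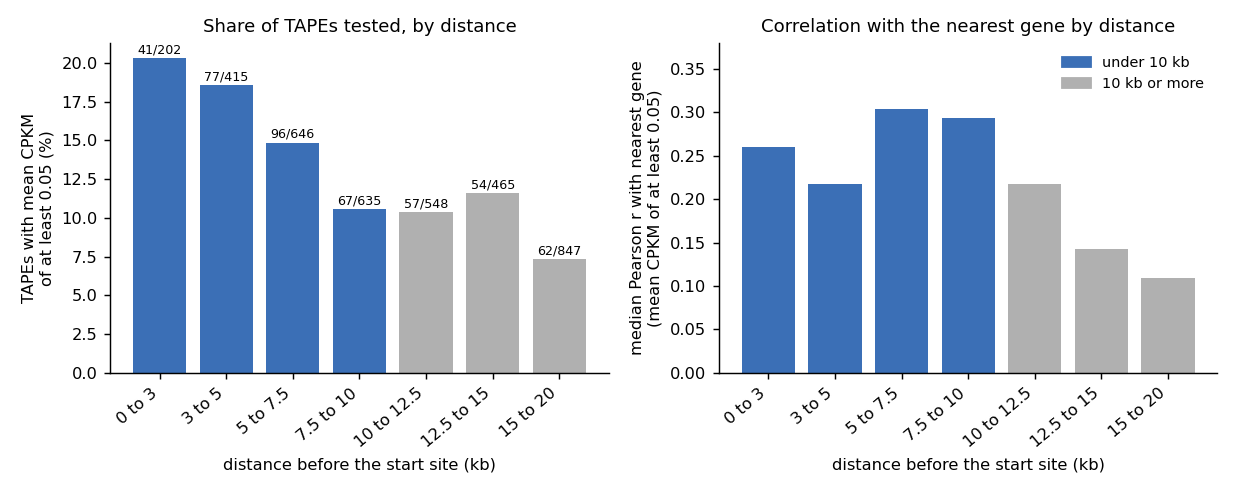
Left, the percentage of TAPEs with a mean of at least 0.05 CPKM, by distance from the start site in kb; right, the median correlation of the tested TAPEs with the nearest gene over 19 libraries in the same bins. The share that could be tested was 20.3% in the nearest bin and 7.32% from 15 to 20 kb. The median correlation did not fall steadily with distance. From the nearest bin outward it was 0.260, 0.217, 0.304 and 0.294 under 10 kb, and 0.217, 0.143 and 0.109 beyond.

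The 6 highest start-proximal TAPEs lay beside genes of quite different roles. The TAPE of Cdt1, which licenses replication origins, was at chr19:55378068-55379523, 2769 bp from the start, with a mean of 0.915 CPKM. That of Orai2, a subunit of store-operated calcium channels (chr12:23539789-23541642, 3572 bp), had a mean of 0.886 CPKM. The TAPE near Mir3074 (chr17:828128-829929, 4972 bp) was at 0.748, and that of Rabepk, a kelch-repeat partner of the GTPase Rab9 (chr3:13867255-13869595, 2582 bp), at 0.727 CPKM. Rpp25, a subunit of ribonuclease P, had a TAPE at 0.512 CPKM (chr8:62274612-62275990, 8035 bp), and Cep112, a centrosomal protein gene, at 0.486 CPKM (chr10:96657455-96658689, 5668 bp). These are means over all 19 libraries and hide the regional patterns that follow.

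Summed over all 1898, start-proximal TAPEs gave fewer reads after KCl. In the cortex they held 126 ± 12.2 RPM (reads per 1000000 mapped reads) with vehicle and 113 ± 2.29 with KCl (SD, n = 3 each), in the hippocampus 125 ± 5.64 and 104 ± 4.41 (n = 3 each), and in the striatum 136 ± 3.66 (n = 4) and 113 ± 3.61 (n = 3). KCl libraries lay below every vehicle library of their own region in all 3 regions. The within-region difference was -18.9 RPM (two-sided exact permutation p = 7.14e-05, the smallest that the 14000 arrangements allow, adjusted p = 0.0005 over 7 comparisons). All TAPEs together moved the same way, from 1128 to 1037 RPM in the cortex, 1096 to 976 in the hippocampus and 1129 to 995 in the striatum. As a share of all TAPE reads, the start-proximal ones were 0.561 percentage points lower after KCl (exact permutation p = 0.0005, adjusted p = 0.0035). The share was 12.1% ± 0.169 in striatal vehicle (n = 4) and 11.4% ± 0.167 in striatal KCl (n = 3), 11.4% ± 0.126 and 10.6% ± 0.225 in the hippocampus (n = 3 each), and 11.2% ± 0.379 and 10.9% ± 0.0799 in the cortex (n = 3 each), where alone the treatments overlapped. Within single regions the exact permutation p for the share was 0.4 in the cortex, 0.1 in the hippocampus and 0.0286 in the striatum, the last 2 being the smallest these group sizes allow. Regions were compared with vehicle and KCl libraries pooled, and these permutations did not keep the treatments apart. The striatum, with 4 vehicle and 3 KCl libraries against 3 of each elsewhere, had a larger share than the cortex by 0.745 percentage points. It exceeded the hippocampus by 0.775 percentage points (exact permutation adjusted p = 0.0218 for each). The cortex and hippocampus differed by 0.0302 percentage points (exact permutation p = 0.905).

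Of the 281 tested start-proximal TAPEs, 121 differed between the 3 brain regions (43.1%), with vehicle and KCl libraries of a region pooled, against 48.8% of all 1870 tested TAPEs. Selective TAPEs are those that passed and whose level in a region exceeded both other regions, with an unadjusted limma p under 0.05 for each pair. This held for 51 TAPEs in the striatum (18.1%, against 16.7% of all), 20 in the hippocampus (7.12%, against 6.74%) and 11 in the cortex (3.91%, against 5.67%). Of pairs of regions, hippocampus and striatum differed in 107 of the 281 (43.0% of all tested), cortex and striatum in 82 (33.3% of all) and cortex and hippocampus in 35 (14.9% of all). These shares lay close to the background. Since the filter used the mean over all libraries, a TAPE could pass it through 1 region alone. The selective examples below are among the 4 with the smallest adjusted p in each region.

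In the cortex, TAPEs of an enzyme gene, a homeobox factor and a sterile alpha motif gene were clearly higher than elsewhere. The TAPE of Mpped1, a metallophosphoesterase gene (chr7:124669911-124674064, 8307 bp), reached 0.731 to 1.19 CPKM in the cortex (median 0.803). It was 0.198 to 0.516 CPKM in the striatum (median 0.335) and 0.0241 to 0.104 in the hippocampus (median 0.0530), so that all 3 regions were apart. The cortex minus hippocampus log2 difference was 3.07 ± 0.21 (SE, adjusted p = 2e-12), and cortex minus striatum was 1.30 ± 0.21 (adjusted p = 7.8e-06).

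The other cortical TAPEs were beside Nkx2-2 and Samd11. Nkx2-2 encodes a homeobox factor of the ventral neural tube and the oligodendrocyte lineage, and its TAPE (chr3:141417453-141420647, 7880 bp) ranged from 0.256 to 0.356 CPKM in the cortex. It was 0.0828 to 0.146 CPKM in the hippocampus and 0.0420 to 0.141 in the striatum, with no overlap with the cortex, and the log2 difference from the hippocampus was 1.18 ± 0.20 (adjusted p = 5.4e-05). The TAPE of Samd11, a sterile alpha motif gene (chr5:173688663-173691697, 9890 bp), was 0.106 to 0.227 CPKM in the cortex and at most 0.0531 elsewhere. Mpped1, Nkx2-2 and Samd11 had correlations of 0.93, 0.90 and 0.93 with their TAPEs over all libraries, and of 0.12, -0.71 and 0.58 within the cortex. For the Nkx2-2 TAPE another gene was ahead over all libraries, Kiz at 351027 bp (0.94).

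In the hippocampus, TAPEs of a cell identity factor, a peptide receptor and a potassium channel stood out. Prox1, a homeobox factor that marks granule cells of the dentate gyrus, had a TAPE at chr13:108376448-108377915 (5217 bp) with 0.258 to 0.370 CPKM in the hippocampus (median 0.343). The cortical libraries reached 0 to 0.103 CPKM and the striatal ones 0 to 0.0261. The hippocampal libraries lay above all others, with a cortex minus hippocampus log2 difference of -2.27 ± 0.26 (adjusted p = 9.5e-08), and a hippocampus minus striatum difference of 2.57 ± 0.25 (adjusted p = 1.1e-09).

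The TAPE of Npy2r, the receptor whose start site is printed above (chr2:181537034-181539619, 6348 bp), had 0.160 to 0.412 CPKM in the hippocampus (median 0.329), 0.0213 to 0.124 in the cortex and 0 to 0.0334 in the striatum. Its hippocampus minus striatum log2 difference was 2.58 ± 0.25 (adjusted p = 6.4e-10), and the cortex also exceeded the striatum, by 0.82 ± 0.25 (adjusted p = 0.0093). Kcnc4 encodes a fast voltage-gated potassium channel of the Kv3 family, and its TAPE (chr2:210243731-210244957, 2889 bp) was 0.168 to 0.384 CPKM in the hippocampus, 0.0112 to 0.109 in the cortex and 0 to 0.0422 in the striatum. The TAPE of Ldlrad2, a low-density lipoprotein receptor domain gene (chr5:155921473-155923121, 5404 bp), was 0.104 to 0.244 CPKM in the hippocampus and 0.0180 to 0.109 in the cortex, overlapping between these regions, while 6 of 7 striatal libraries were at 0.

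The striatum held most of the selective TAPEs, and among these Rpp25 had the smallest adjusted p. It was 0.681 to 1.58 CPKM in the striatum (median 1.34), 0.0781 to 0.163 in the cortex (median 0.123) and 0.0639 to 0.210 in the hippocampus (median 0.114). The striatal libraries were far above the rest, with log2 differences of cortex minus striatum -2.82 ± 0.21 (adjusted p = 8.6e-12) and hippocampus minus striatum -2.86 ± 0.21 (adjusted p = 2.8e-12). The TAPE of Ppp1r1b, which encodes the dopamine-regulated phosphatase inhibitor DARPP of striatal projection neurons (chr10:86299901-86301386, 3084 bp), was 0.223 to 0.415 CPKM in the striatum (median 0.284). It was at most 0.0647 CPKM in the cortex and at most 0.0833 in the hippocampus, so no library overlapped, and cortex minus striatum was -1.81 ± 0.22 on the log2 scale (adjusted p = 1.5e-07).

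MGC116121, an uncharacterised gene, had a TAPE (chr18:16433999-16436453, 2865 bp) that was graded across regions, with 0.394 to 0.677 CPKM in the striatum, 0.108 to 0.217 in the hippocampus and 0.0225 to 0.0847 in the cortex. None of the 3 ranges overlapped, and the cortex minus striatum log2 difference was -2.44 ± 0.20 (adjusted p = 2.3e-11). The TAPE of Cenpa, the centromeric histone variant gene (chr6:27088033-27091193, 8757 bp), was 0.109 to 0.178 CPKM in the striatum and at most 0.0370 in any other library. The RNA of Cenpa had a correlation of -0.66 with its TAPE.

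**Figure D2:**
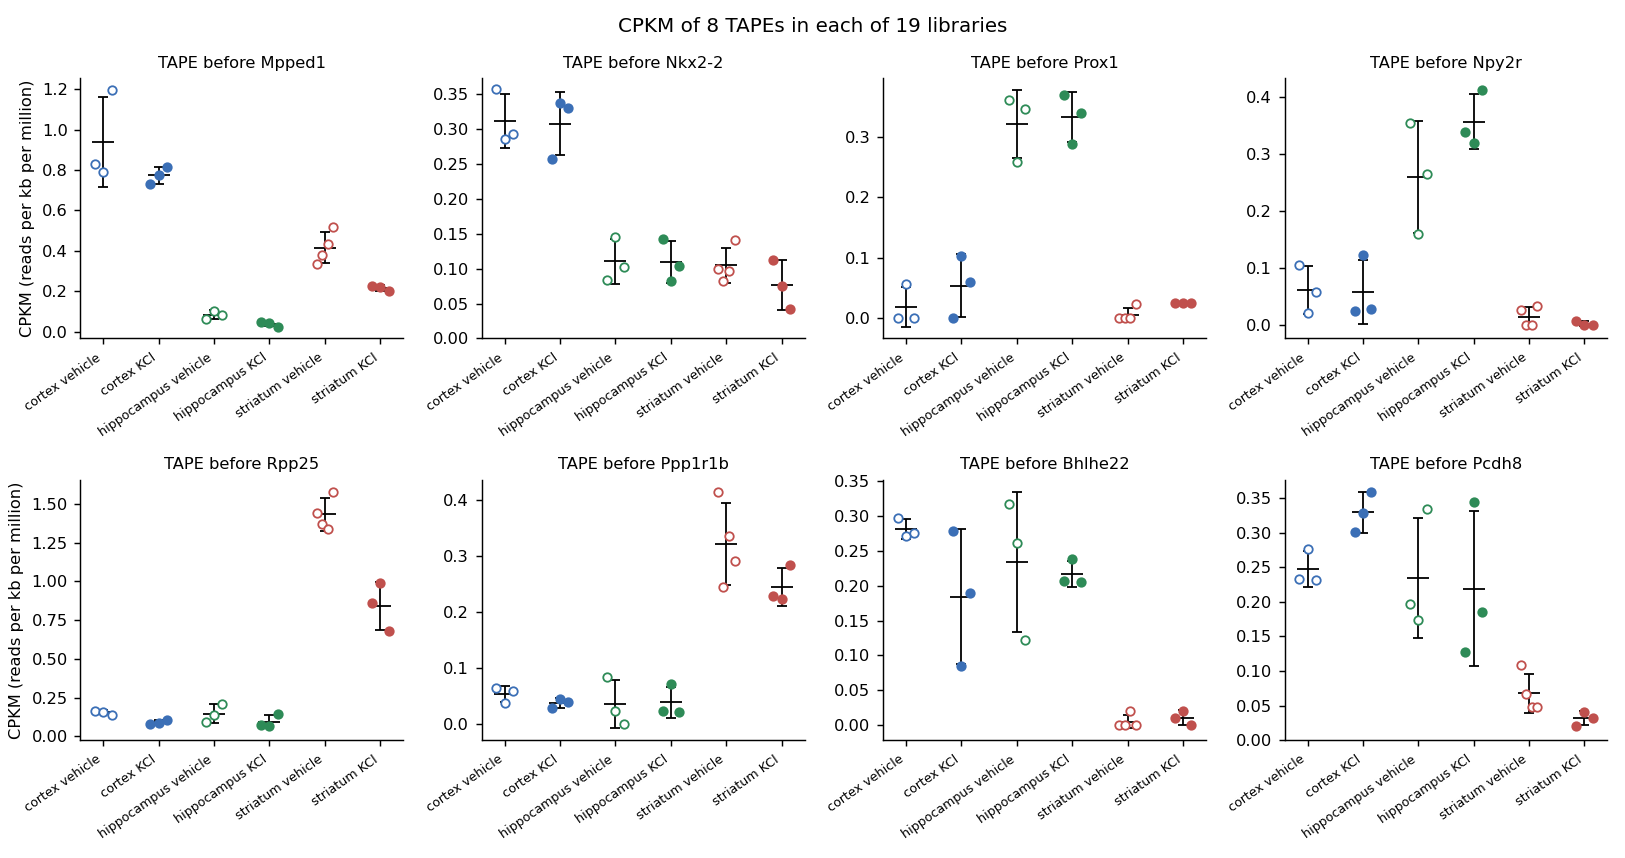
CPKM in each of 19 libraries for 8 start-proximal TAPEs, by region (open points vehicle, filled points KCl; bars mean ± SD). Mpped1 and Nkx2-2 were highest in cortex, Prox1 and Npy2r in hippocampus, Rpp25 and Ppp1r1b in striatum, and Bhlhe22 and Pcdh8 were near 0.00725 and 0.0523 CPKM on average in striatum and above 0.2 CPKM in the other 2 regions.

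Several TAPEs separated the cortex and hippocampus from the striatum without favouring either. Bhlhe22, a basic helix-loop-helix factor of glutamatergic neurons, had a TAPE (chr2:102680053-102681830, 4572 bp) with 0.0851 to 0.298 CPKM in the cortex, 0.122 to 0.318 in the hippocampus and 0 to 0.0207 in the striatum. The striatal libraries lay below all others, with a cortex minus striatum log2 difference of 2.25 ± 0.23 (adjusted p = 3.3e-09), whereas cortex minus hippocampus was 0.01 ± 0.24. Pcdh8, a protocadherin gene, showed the same order (chr15:62203002-62204792, 3060 bp), with 0.232 to 0.359 CPKM in the cortex, 0.127 to 0.345 in the hippocampus and 0.0211 to 0.108 in the striatum. Its cortex minus striatum difference was 1.76 ± 0.22 (adjusted p = 1.5e-07).

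Slitrk2, a synaptic adhesion gene (chrX:151098716-151100877, 3780 bp), and Tgfb2, a transforming growth factor gene (chr13:105147360-105149024, 7162 bp), had TAPEs with smaller differences and overlapping libraries. Cortex minus striatum was 0.86 ± 0.27 for Slitrk2 (adjusted p = 0.012) and 0.65 ± 0.21 for Tgfb2 (adjusted p = 0.017).

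Few of the TAPEs beside known identity genes could be tested. Of 37 striatal identity genes, 9 had a start-proximal TAPE, with 11 TAPEs in all; 4 were tested and all 4 were selective for the striatum (16.7% of all tested TAPEs were). Among these were Ppp1r1b and Gsx2, a homeobox factor gene of ventral forebrain progenitors. The TAPE of Gsx2 (chr14:35660064-35662186, 8416 bp) was 0.0623 to 0.232 CPKM in the striatum and at most 0.0630 elsewhere. Of 32 cortical identity genes, 7 had a TAPE, 2 were tested, Bhlhe22 among them, and both differed between regions (48.8% of all tested TAPEs did). Of 26 hippocampal identity genes, 7 had a TAPE and 3 were tested: Prox1, Tgfb2 and Wfs1. The Wfs1 TAPE (chr14:78631634-78634135, 7736 bp), beside an endoplasmic reticulum membrane protein gene, was 0.0141 to 0.0964 CPKM in the hippocampus, 0.0220 to 0.0818 in the cortex and 0.0161 to 0.0884 in the striatum, with wide overlap. The lists were chosen with results of these libraries known, so their counts are a description.

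Start-proximal TAPEs of other cell types were few. The astrocyte list had 5 TAPEs and none was tested, and the microglial and endothelial lists had 0. The oligodendrocyte lineage list had 3, of which Nkx2-2 and Mog were tested. The TAPE of Mog, a myelin protein gene (chr20:1997759-1999968, 5189 bp), was 0.120 to 0.275 CPKM in the striatum, 0.0195 to 0.137 in the cortex and 0.0328 to 0.0798 in the hippocampus, and cortex minus striatum was -0.73 ± 0.23 on the log2 scale (adjusted p = 0.011). The Mog gene had a correlation of 0.14 with it. Of 30 TAPEs beside genes on the channel and receptor list, 3 were tested and 1, Kcnc4, differed between regions. The other 2 were Kcne2, a channel accessory subunit gene (chr11:32430915-32432095, 8732 bp, mean 0.111 CPKM), and Kcnk13, a potassium channel gene (chr6:123966061-123967890, 7823 bp, mean 0.0520 CPKM). That list does not hold every such gene: Npy2r, Orai2 and Trpm2 are not on it, and their TAPEs also differed between regions. Of 22 TAPEs beside genes on the list of developmental transcription factor families, 6 were tested and 2 differed between regions (48.8% of all tested TAPEs did). Of 16 beside genes on the guidance and adhesion list, 2 were tested and both differed (48.8% of all tested TAPEs did).

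Of the 13 TAPEs next to a microRNA gene, 6 were tested, and 4 of these differed between regions, all 4 of them selective for the striatum (48.8% of all tested TAPEs differed and 16.7% were selective for the striatum). With 6 tested, these counts are a description. Apart from Mir3074, these TAPEs were chosen for naming after their values were seen. The TAPE near Mir6329 (chr8:56633389-56635355, 4687 bp) had a mean of 0.712 CPKM in the striatum (0.510 to 0.909), 0.270 in the cortex (0.188 to 0.330) and 0.217 in the hippocampus (0.129 to 0.338). Mir124-2 and Mir124-1 are separate gene copies of miR-124, a microRNA abundant in neurons. The TAPE near Mir124-2 (chr2:102301454-102303239, 9257 bp) had a mean of 0.443 CPKM in the striatum (0.338 to 0.571) against 0.180 in the cortex and 0.106 in the hippocampus, and that near Mir124-1 (chr15:47955028-47956554, 8507 bp) had 0.171 against 0.0173 and 0.0265 CPKM. In both, every striatal library lay above every other one.

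The TAPE near Mir135b (chr13:48968264-48971866, 6921 bp) averaged 0.313 CPKM in the striatum, 0.186 in the hippocampus and 0.131 in the cortex, with overlapping libraries. Mir3074 (0.473 to 1.09 CPKM over all libraries) and Mir142 (chr10:75041344-75043187, 8566 bp, mean 0.0644 CPKM) did not pass the regional test. The deposited correlation with the microRNA itself was 0.85 for Mir124-2, 0.80 for Mir124-1, 0.56 for Mir135b and -0.14 for Mir6329. For Mir124-2 it was -0.86, -0.61 and 0.10 within the cortex, hippocampus and striatum. The TAPE near Mir6329 had its highest correlation with Zc3h12c, a zinc finger gene 62596 bp away (0.94). The libraries were made from total RNA, and mature microRNAs were not measured separately.

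Very few start-proximal TAPEs passed the test for 1 h of KCl. In the cortex 0 of 281 passed (0.321% of all 1870 tested TAPEs did), in the hippocampus 0 (0.0535% of all) and in the striatum 5, that is 1.78% (1.23% of all), 2 higher (0.802% of all) and 3 lower (0.428% of all). By an unadjusted limma p under 0.05 the counts were 26 in the cortex (10.4% of all), 40 in the hippocampus (13.3% of all) and 56 in the striatum (15.1% of all). In the cortex 9 of these were higher (3.9% of all) and 17 lower (6.52% of all), in the hippocampus 11 higher (3.1%) and 29 lower (10.2%), and in the striatum 13 higher (3.32%) and 43 lower (11.8%). Limma with precision weights on the recovered reads (voom) is the count-based alternative, and it gave 0, 0 and 7 calls. The median log2 change was -0.09 in the cortex, -0.17 in the hippocampus and -0.20 in the striatum, against -0.09, -0.16 and -0.17 for all tested TAPEs. When each library was centred on the median of all tested TAPEs, which moved the changes up by 0.07, 0.17 and 0.14, the unadjusted counts became 14 higher and 14 lower, 23 and 21, and 19 and 30. No start-proximal TAPE passed the test for a KCl response that differed between regions (limma interaction, 0 of 281 against 0.0535% of all, and 22 at an unadjusted p under 0.05 against 8.24% of all).

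**Figure D3:**
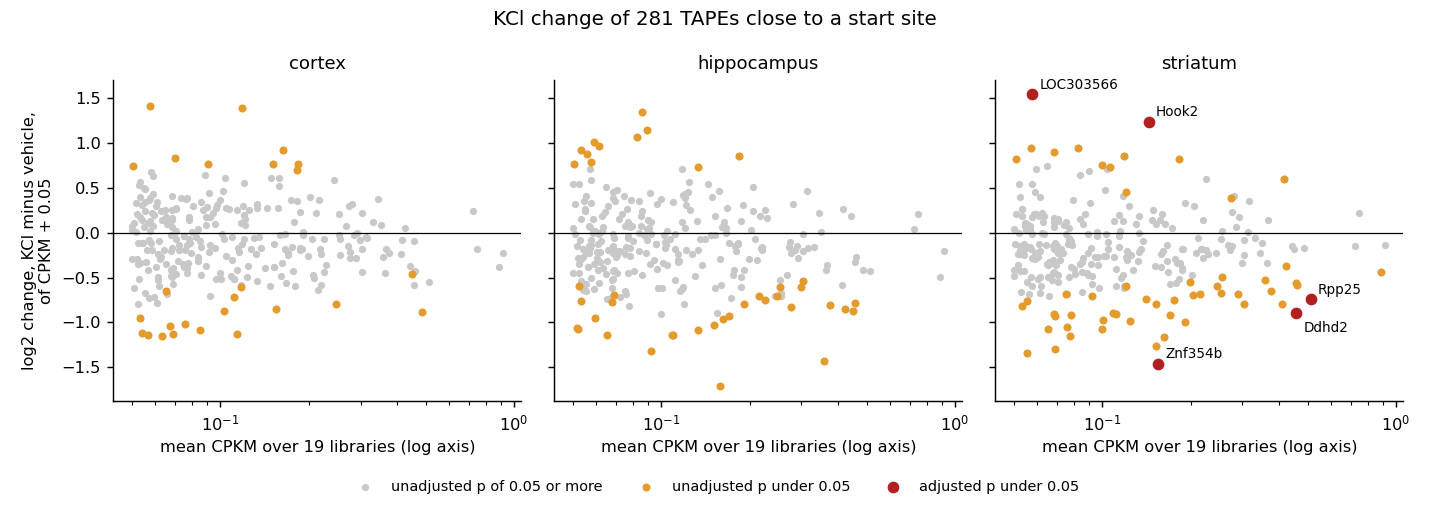
Log2 change of CPKM + 0.05, KCl minus vehicle, against the mean CPKM over 19 libraries (log axis) for the 281 tested start-proximal TAPEs in each region; orange points have an unadjusted p under 0.05 and red points an adjusted p under 0.05. All 5 red points are in the striatum, and most orange points lie below 0 (17 of 26, 29 of 40 and, with the red, 43 of 56).

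The 2 TAPEs that rose in the striatum lay beside Hook2 and LOC303566. Hook2, a linker of microtubules to organelles, had a TAPE at chr19:26100689-26103090, 4949 bp from its start. Striatal vehicle libraries read 0.132, 0.126, 0.0934 and 0.0719 CPKM, and KCl libraries 0.299, 0.246 and 0.415 CPKM. The groups were apart, with a log2 change of 1.24 ± 0.25 (SE, adjusted p = 0.0305). In the hippocampus KCl libraries (0.131, 0.147 and 0.166) also lay above vehicle (0.0515, 0.0932 and 0.121), with a change of 0.55 ± 0.28 (adjusted p = 0.424), and in the cortex the groups overlapped (0.28 ± 0.31). The RNA of Hook2 had a correlation of 0.01 with its TAPE over all libraries, with 0.06 within the cortex, -0.27 within the hippocampus and -0.91 within the striatum. Junb, an AP-1 subunit induced by activity, starts 7133 bp away and had a correlation of 0.66 with it, with 0.56 within the cortex, 0.79 within the hippocampus and 0.90 within the striatum.

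LOC303566 is an uncharacterised gene whose TAPE (chr10:90188422-90190566, 3133 bp) was near the limit of detection in vehicle. Striatal vehicle libraries held 0.0328, 0.0376, 0 and 0.0322 CPKM, and striatal KCl libraries 0.158, 0.120 and 0.232. No library overlapped, and the change was 1.54 ± 0.33 on the log2 scale (adjusted p = 0.0387). In the cortex the TAPE was at 0 in all 3 vehicle libraries and at 0.0804, 0.0471 and 0.136 CPKM with KCl (adjusted p = 0.0888). Its nearest gene had a correlation of 0.37 with it over all libraries, and of 0.90, 0.22 and 0.61 within the cortex, hippocampus and striatum. The gene with the highest value over all libraries was Arl4d, a small GTPase gene 611282 bp away (0.86, and 0.87, 0.75 and 0.86 within the same regions).

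The 3 TAPEs that fell in the striatum lay beside Znf354b, Rpp25 and Ddhd2. The TAPE of Znf354b, a zinc finger gene (chr10:36421794-36423763, 2852 bp), read 0.313, 0.245, 0.245 and 0.210 CPKM with vehicle and 0.105, 0.0562 and 0.0292 with KCl. The change was -1.46 ± 0.28 (adjusted p = 0.0223). Cortical libraries were apart in the same way, at 0.252, 0.231 and 0.211 against 0.120, 0.0768 and 0.126 CPKM, but did not pass the test (-0.85 ± 0.28, adjusted p = 0.26).

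Rpp25, the striatal TAPE described above, read 1.44, 1.37, 1.34 and 1.58 CPKM with vehicle and 0.863, 0.989 and 0.681 with KCl in the striatum. The 2 groups were apart, with a change of -0.74 ± 0.15 (adjusted p = 0.0305). The TAPE of Ddhd2, a phospholipase gene (chr16:71082118-71083404, 7284 bp), read 0.766, 1.03, 0.684 and 0.738 CPKM with vehicle and 0.425, 0.330 and 0.477 with KCl. Its change was -0.89 ± 0.18 (adjusted p = 0.0305). In the hippocampus it read 0.357, 0.468 and 0.465 against 0.231, 0.219 and 0.233 CPKM, again without overlap (-0.78 ± 0.17, adjusted p = 0.154). The RNA of Ddhd2 was itself lower after KCl over the 3 regions (exact permutation adjusted p = 0.0463). The RNA of Znf354b and of Rpp25 did not pass that test (adjusted p = 0.347 and 0.54).

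These 5 calls rest on small groups. Without striatal KCl replicate 1 a single call remained, Znf354b, and without any other single striatal library 0 remained, although no direction turned. Of 14 alternative settings, Znf354b was called in 7, Hook2 in 6, Rpp25 in 3 and Ddhd2 in 2, and LOC303566 was called in 4 of 13.

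**Figure D4:**
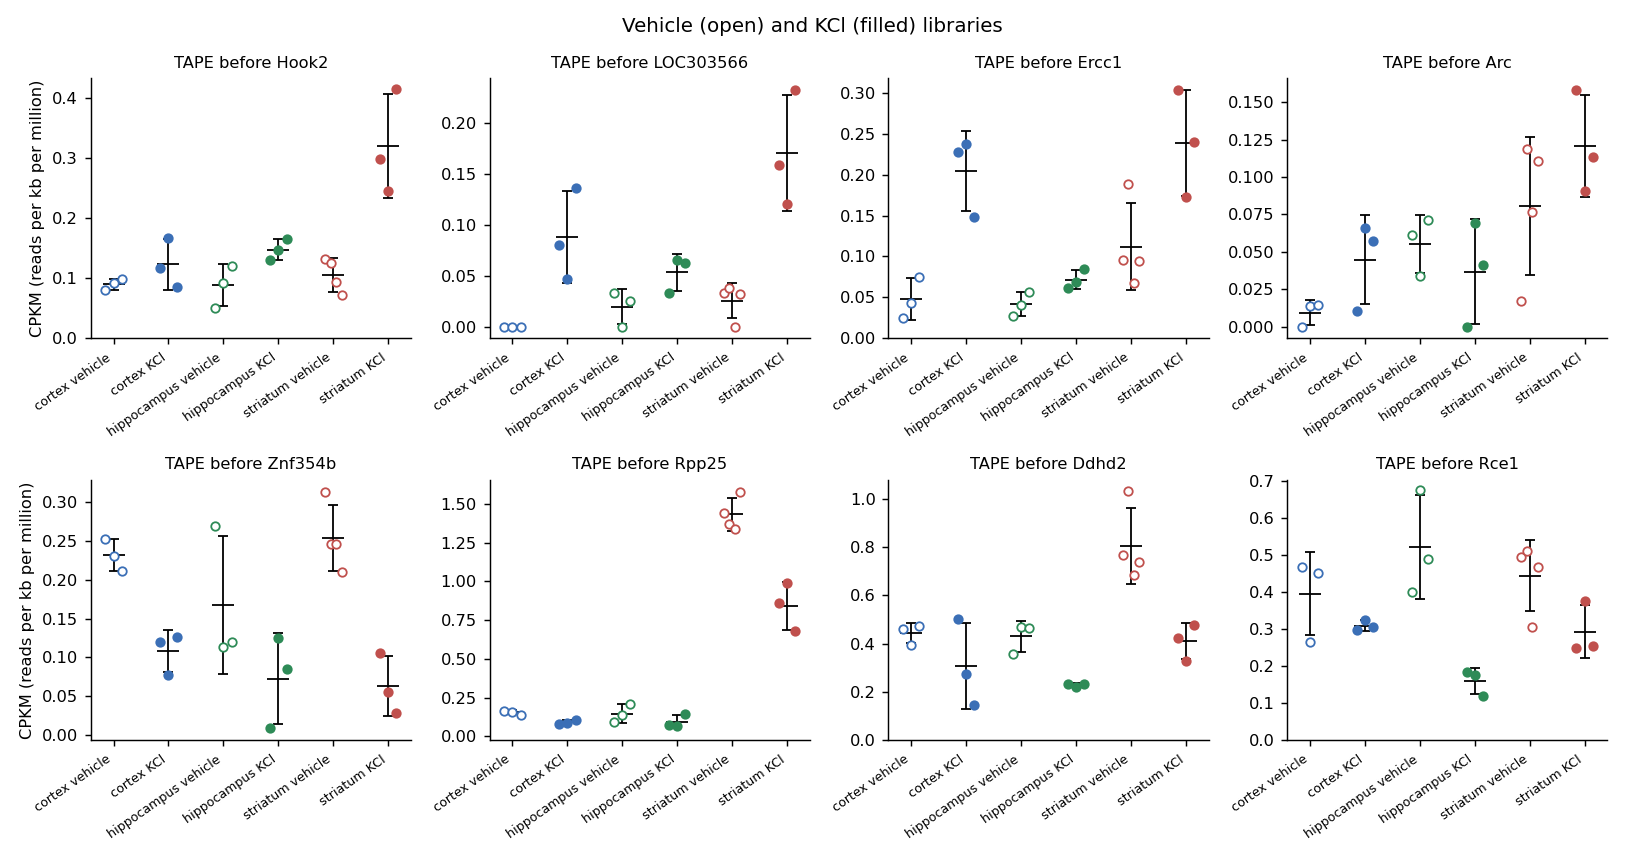
CPKM in each library for 8 start-proximal TAPEs, with open points for vehicle, filled points for KCl and bars for mean ± SD, in cortex, hippocampus and striatum. In the striatum KCl libraries lay above every vehicle library for Hook2 and LOC303566 and below every vehicle library for Znf354b, Rpp25 and Ddhd2, whereas the TAPE of Arc overlapped.

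In the cortex, where none passed, the smallest p-values belonged to LOC303566, Ercc1 and Nfic. The TAPE of Ercc1, a subunit of a nucleotide excision repair nuclease (chr1:80253248-80255806, 2446 bp), read 0.0251, 0.0431 and 0.0755 CPKM with vehicle and 0.227, 0.237 and 0.149 with KCl. The groups were apart, with a difference of 1.39 ± 0.32 (adjusted p = 0.098). The striatal values were 0.0963, 0.189, 0.0674 and 0.0945 against 0.303, 0.173 and 0.240 CPKM, and overlapped. The highest correlation of this TAPE was with Fosb, an activity-induced AP-1 subunit gene 32817 bp away (0.81), against -0.29 with Ercc1.

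Nfic, a nuclear factor I gene, had 2 tested start-proximal TAPEs. The weaker (chr7:11145428-11146795, 5926 bp) read 0.105, 0.0605 and 0.0651 CPKM with vehicle and 0, 0.0246 and 0 with KCl in the cortex, with a difference of -1.14 ± 0.32 (adjusted p = 0.207). The stronger, next to it (chr7:11146953-11149940, 3591 bp), read 0.370, 0.512 and 0.432 against 0.288, 0.349 and 0.298 CPKM, also apart, with -0.43 ± 0.22 (adjusted p = 0.509). The gene Nfic was lower after KCl over the 3 regions (exact permutation adjusted p = 0.00188).

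In the hippocampus the smallest p-values belonged to Rce1, Mdm2 and Irf2bpl. The TAPE of Rce1, a protease that processes prenylated proteins (chr1:219866328-219868137, 3306 bp), read 0.401, 0.676 and 0.490 CPKM with vehicle and 0.184, 0.175 and 0.120 with KCl (-1.44 ± 0.23, adjusted p = 0.153). That of Mdm2, the ubiquitin ligase that restrains the p53 protein (chr7:60749173-60751841, 7179 bp), read 0.0663, 0.0710 and 0.0543 against 0.216, 0.218 and 0.287 (1.35 ± 0.23, adjusted p = 0.153). Both were apart between treatments in the hippocampus and overlapped in the other 2 regions, with limma interaction adjusted p of 0.411 for Rce1 and 0.337 for Mdm2 (0.0057 and 0.0034 unadjusted). Mdm2 had a correlation with its TAPE of 0.88 within the hippocampus (n = 6), but of -0.49 within the cortex and 0.21 within the striatum. The TAPE of Irf2bpl, a transcriptional regulator gene (chr6:110908221-110909884, 4765 bp), was at 0.0744, 0.0621 and 0.0327 CPKM with vehicle and at 0 in all 3 KCl libraries (adjusted p = 0.154). The gene Irf2bpl itself was higher after KCl over the 3 regions (exact permutation adjusted p = 0.00277). Its correlation with the TAPE was -0.31 over all libraries.

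Activity-regulated genes answered KCl while the TAPEs just upstream of them were mostly too weak to test. Of 67 genes in that list, 15 had a start-proximal TAPE (16 TAPEs), and 14 of these 15 genes were higher after KCl over the 3 regions (5.93% of all 16861 genes with a profile were). The list was made of activity-regulated genes and picked with earlier results of these data known, so this count is only a description. The TAPEs of these 15 genes held 6 to 638 reads in all libraries together, and 3 of 16 were tested. Of the 3, 0 passed the KCl test in any region, and 0 by an unadjusted limma p under 0.05. Dusp4, a MAP kinase phosphatase gene, had the strongest (chr16:61092789-61094446, 2448 bp). It read 0.222, 0.308 and 0.296 CPKM with vehicle and 0.260, 0.386 and 0.503 with KCl in the cortex, overlapping (0.38 ± 0.26, adjusted p = 0.631).

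The TAPE of Arc, a synaptic immediate early gene (chr7:115916185-115918215, 6659 bp), read 0.0173, 0.119, 0.0765 and 0.111 CPKM with vehicle and 0.158, 0.0908 and 0.113 with KCl in the striatum. These overlapped (0.45 ± 0.36, adjusted p = 0.589), while the gene had an exact permutation adjusted p of 0.00188 for a higher level after KCl. The TAPE of Inhba, an activin subunit gene (chr17:51913712-51916386, 2553 bp), differed by -0.20 ± 0.33, -0.52 ± 0.30 and -0.34 ± 0.31 in the cortex, hippocampus and striatum, and Inhba was the gene of the 15 that did not pass.

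Of the untested ones, the Scg2 TAPE 9778 bp from the start (chr9:85251631-85253927, 95 reads) read 0.0140, 0.0240 and 0 CPKM with vehicle and 0.113, 0.0732 and 0.0509 with KCl in the cortex, apart but below the filter. Scg2 encodes secretogranin, a dense-core vesicle protein. The TAPE of Fos, the AP-1 subunit gene (chr6:109293701-109295567, 5799 bp), held 20 reads in all 19 libraries, that of Egr1, a zinc finger immediate early gene (chr18:27648945-27651063, 7624 bp), 32, and that of Bdnf, a neurotrophin gene (chr3:100762888-100764927, 4729 bp), 24. A KCl difference at these 3 sites was not detectable at this depth. Scg2, Fos, Egr1 and Bdnf were named after their values were seen.

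Start-proximal TAPEs had somewhat higher correlations with their nearest gene than TAPEs in general, a difference that was not tested. The deposited correlation coefficient (Pearson's r over 19 libraries) had a median of 0.118 over all start-proximal TAPEs and 0.0593 over all TAPEs with their nearest genes. Among tested TAPEs it was 0.280 against 0.183. It was above 0.5 for 84 of 281 (29.9%, against 23.3% of all tested) and below -0.5 for 8 (2.85%, against 5.67%). The second nearest gene, at a median of 28552 bp, had a median r of 0.124 with the tested ones. TAPEs 10 to 20 kb before a start had 0.160. These are descriptions over shared libraries, which fall into regional groups.

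**Figure D5:**
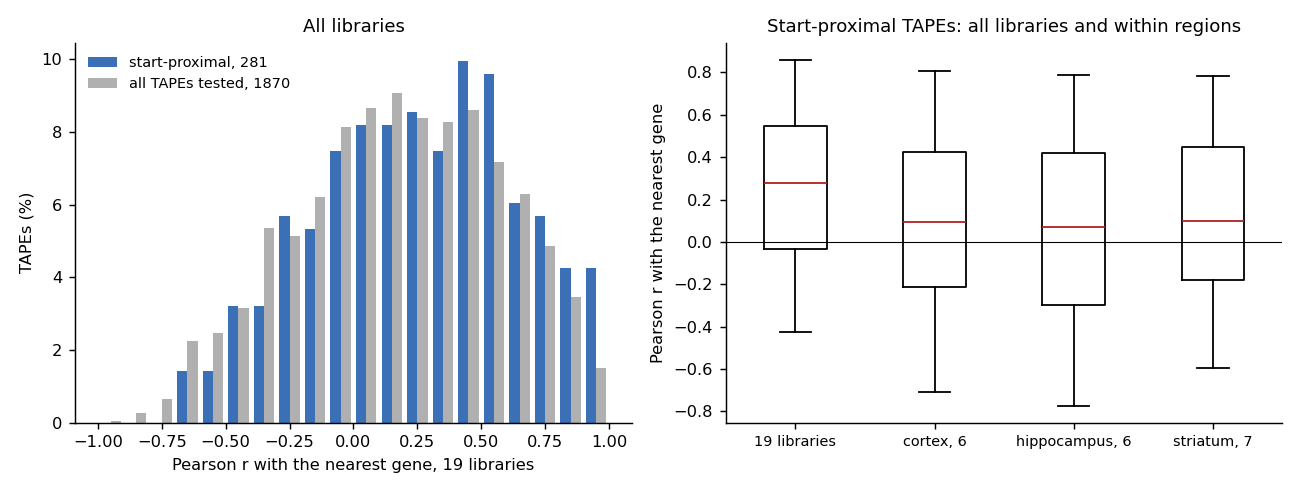
Left, the distribution of r between each TAPE and its nearest gene over 19 libraries, for the 281 tested start-proximal TAPEs and all 1870 tested TAPEs; right, box plots (median, quartiles, whiskers from the 5th to the 95th percentile) of r over 19 libraries and within each region. The start-proximal median was 0.280 over 19 libraries and 0.0930, 0.0690 and 0.0992 within cortex, hippocampus and striatum.

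The correlation went with regional difference. The 121 TAPEs that differed between regions had a median r of 0.555, and 70 of them exceeded 0.5 (57.9%). The other 160 had a median of 0.123, and 14 exceeded 0.5 (8.75%). Of all tested TAPEs, 39.7% of those that differed and 7.72% of the rest exceeded 0.5. For all tested TAPEs these medians were 0.384 and 0.104. Within regions, where 6 or 7 libraries remained, the median over tested start-proximal TAPEs was 0.0930 in the cortex, 0.0690 in the hippocampus and 0.0992 in the striatum. Of TAPEs selective for a region, the nearest gene had its highest level in the same region for 37 of 51 in the striatum (72.5%, against 57.3% of all tested), 15 of 20 in the hippocampus (75%, against 52%) and 7 of 11 in the cortex (63.6%, against 64.8%). Of the 84 with r above 0.5, 61 stayed above it without each library in turn, and 74 also had a Spearman rho above 0.5.

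The 4 highest values were those of Prox1 (0.98), Npy2r (0.95), Trpm2 (0.95) and Samd5 (0.95). All 4 TAPEs differed between regions. The TAPE of Trpm2, a calcium-permeable cation channel gene (chr20:11433122-11435219, 2097 bp), was 0.0741 to 0.119 CPKM in the striatum, 0.0229 to 0.0557 in the cortex and 0 to 0.0238 in the hippocampus. That of Samd5, a sterile alpha motif gene (chr1:3768198-3772185, 6800 bp), was 0.428 to 0.586 CPKM in the striatum, 0.238 to 0.294 in the cortex and 0.0818 to 0.213 in the hippocampus, with no overlap. Within a region the values were lower: Prox1 had 0.34, -0.24 and 0.77 and Npy2r 0.76, 0.60 and 0.70 in the cortex, hippocampus and striatum. Rpp25 had 0.95 over all libraries, 0.61 by Spearman's rho, and -0.49, -0.10 and 0.50 within regions. Ddhd2 stood higher within regions, at 0.48, 0.93 and 0.93.

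The 4 lowest values were those of Cenpa (-0.66), Cdt1 (-0.65), Slc2a1 (-0.64) and Nptxr (-0.60). Cdt1 and Cenpa are both proliferation genes. The Cdt1 TAPE was 0.948 to 1.45 CPKM in the striatum, 0.693 to 1.03 in the cortex and 0.547 to 1.11 in the hippocampus. Its highest correlation was with Spg7, a mitochondrial protease gene 501765 bp away (0.84). The TAPE of Slc2a1, the glucose transporter gene (chr5:138150922-138152733, 2845 bp), was 0.0208 to 0.333 CPKM in the striatum and at most 0.0902 elsewhere. That of Nptxr, the neuronal pentraxin receptor gene (chr7:121034603-121036470, 5783 bp), was 0.0308 to 0.140 CPKM in the striatum and 0 to 0.0947 elsewhere.

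The nearest gene was mostly not the best correlated one. Among start-proximal TAPEs, the nearest gene had the highest r of all paired genes within 1 Mb for 204 of 1891 (10.8%); 1 divided by the number of paired genes averaged 6.2%. For all TAPEs the share was 16.3%, beside an average of 13.1%. Among tested start-proximal TAPEs it was 44 of 280 (15.7%), beside an average of 5.5%. For all tested TAPEs it was 17.3%, beside an average of 10.1%. Prox1, Npy2r, Ppp1r1b, Rpp25, Ddhd2 and Mdm2 were among the 44. For Mpped1 another gene was ahead, Efcab6 at 257038 bp (0.94 against 0.93), and for Kcnc4 it was Sort1, a sorting receptor gene 833990 bp away (0.89 against 0.85). At the 10 kb limit, the tested TAPEs just inside were those of Luc7l (9945 bp, mean 0.187 CPKM, r 0.45) and Ncoa7 (9933 bp, 0.0964, -0.24). Just outside were those of Dync1h1 (10020 bp, 0.120, 0.29) and LOC108349943 (10049 bp, 0.0557, 0.04).

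The nearest genes themselves passed a test for KCl in a share close to that of all genes. Of 1732 nearest genes with a profile, 386 passed an exact permutation test for KCl within region (22.3%, against 20.5% of all 16861). Of these, 134 were higher (7.74%, against 5.93% of all) and 252 lower (14.5%, against 14.6% of all). Next to the tested TAPEs, 63 of 267 genes passed (23.6%, against 20.5% of all). Here 27 were higher (10.1%, against 5.93% of all) and 36 lower (13.5%, against 14.6% of all). The differences between these shares were not tested. Where a start-proximal TAPE had an unadjusted KCl p under 0.05 and its gene passed, the directions matched for 11 of 13 in the striatum, 4 of 5 in the cortex and 4 of 10 in the hippocampus, against 57 of 75, 47 of 60 and 38 of 63 for all tested TAPEs. These pairs share their libraries, so the counts are a description.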

How the data were processed

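Per the labels and the study's methods, the authors trimmed paired total RNA reads with Trim Galore 0.4.5, aligned them to Rn6 with STAR, handled alignments with SAMtools 1.9 and counted reads in SeqMonk. They defined TAPEs on pooled libraries as intergenic open chromatin over 1 kb from genes, with 5 to 95% of reads on the forward strand. The deposited table holds an RPKM value (CPKM) for each TAPE in each of 19 libraries, and the authors' correlation score (Pearson's r) of each TAPE with genes within 1 Mb, over all libraries and within regions. Per the study's methods, the authors removed pairs whose correlation over all libraries was undefined because the gene had no reads in any library. Correlations that enter a median were used as deposited.

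TAPEs with a mean of at least 0.05 CPKM (1870 of 27538) were fitted with limma 3.58.1 in R 4.3.3 on log2(CPKM + 0.05) with a mean-variance trend, by region for KCl, and over all libraries for regions and the interaction. P-values were adjusted by the Benjamini-Hochberg method over all tested TAPEs. Reads were recovered from CPKM steps (100% whole within 0.01 of a read) and fitted with voom as an alternative. Since the table holds no gene levels, standardised gene profiles were solved from the deposited r values of the TAPEs paired with each gene, for 16861 of 17789 gene positions (94.8%), and tested for KCl within region by exact permutation (14000 arrangements). These profiles carry a direction but no level. Scripts were tested on simulated data.

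The TAPEs described, the gene lists and the naming rule were all picked with earlier results of these data known. Named were the 6 highest TAPEs, those called for KCl and the 3 with the smallest p in each region, 4 selective ones in each region, the 4 highest and 4 lowest r, tested TAPEs beside listed genes, and the 2 on each side of the distance limit. The lists were activity-regulated genes, identity genes of the 3 regions, developmental transcription factor families, channels and receptors, guidance and adhesion genes, astrocytes, oligodendrocyte lineage, microglia and endothelium. In the cortex and hippocampus, vehicle and KCl libraries with the same replicate number showed no shared deviation from their group means (correlation -0.0418 to 0.0142). With few reads per TAPE, this cannot tell whether such libraries came from the same cultures. Promoter windows (1406 of 1898 TAPEs matched) and microRNA sequences came from RefSeq, build GRCr8. TAPE sequences were not used here, and 2 TAPEs that the naming rule picked are not reported here.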

Additional observations from a re-analysis of the deposited data

Results flagged for a closer look

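In the values of named TAPEs, 144 groups of at least 4 libraries were examined for a library set apart from the rest by Dixon's ratio, and 12 held one. Chance alone sets apart about 1 in 20 such groups.

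Vehicle libraries accounted for 9 of the 12. Hippocampal vehicle replicate 2 stood at 1.11 CPKM for the Cdt1 TAPE, where the other hippocampal libraries held 0.547 to 0.673, and at 0.374 CPKM for the Luc7l TAPE, where the others held 0.0766 to 0.155. Cortical vehicle replicate 3, the library with conflicting tissue labels, stood at 1.11 CPKM for Orai2 (others 0.591 to 0.759), 1.19 CPKM for Mpped1 (others 0.731 to 0.830) and 0.106 CPKM for Kcnk13 (others 0.0175 to 0.0471).

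Striatal vehicle replicate 8 stood at 0.145 CPKM for Irf2bpl (others 0.0665 to 0.0933), at 0.104 CPKM for Kcnk13 (others 0.0377 to 0.0628) and at 0.0210 CPKM for Ldlrad2, where the other striatal libraries were at 0. Striatal vehicle replicate 6 was at 0 CPKM for LOC303566 among vehicle libraries of 0.0322 to 0.0376.

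Among KCl libraries, striatal replicate 1 stood at 1.09 CPKM for the Mir3074 TAPE (others 0.681 to 0.819), striatal replicate 7 at 0.0640 CPKM for Luc7l (others 0.216 to 0.293) and cortical replicate 1 at 0.0161 CPKM for Ncoa7 (others 0.105 to 0.154).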

How the results depend on the processing

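For KCl in the cortex, 0 TAPEs passed as reported and 2 passed with median centring and 2 with 1 fit of all 6 groups. In the hippocampus 0 became 2 with a filter at 0.1 CPKM, 2 with median centring and 5 with 1 fit of all 6 groups. In the striatum 5 became 2 with a pseudocount of 0.01, 0 with no filter and 9 with a filter at 0.1 CPKM, and 0 to 1 when 1 library was left out. Calls for region dependence fell from 121 to 64 with the filter at 0.1 CPKM, which tests fewer TAPEs, and to 78 with KCl libraries only, an alternative chosen after seeing the data, which uses fewer libraries. They were 173 with no filter, which tests more TAPEs, and 114 to 120 with 1 library left out. TAPEs selective for the hippocampus numbered 47 with no filter and 13 with the filter at 0.1 CPKM, against 20, and those selective for the cortex 17 and 7, against 11. Those selective for the striatum numbered 28 with the filter at 0.1 CPKM, 33 with vehicle libraries only and 28 with KCl libraries only, against 51. By an unadjusted limma p under 0.05, with no filter, 43 TAPEs were higher and 67 lower after KCl in the cortex (against 9 and 17), 27 and 71 in the hippocampus (against 11 and 29) and 33 and 83 in the striatum (against 13 and 43). With the filter at 0.1 CPKM they were 5 and 8, 2 and 23, and 6 and 27. In the striatum the higher ones numbered 8 without KCl replicate 1 and the lower ones 27 without KCl replicate 7. The median correlation of 0.118 was 0.0468 within the cortex, 0.0326 within the hippocampus, 0.0516 within the striatum and 0.280 over tested TAPEs, and tested TAPEs with a correlation above 0.5 numbered 53, 61 and 51 within the 3 regions, against 84. Nearest genes called for KCl numbered 331 to 400 with 1 library left out, against 386. Where not stated, the cause was not tested.

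With the shared replicate number as a block, 0 TAPEs passed for KCl in the cortex and 0 in the hippocampus, and of all tested TAPEs 3 passed against 6 in the cortex and 0 against 1 in the hippocampus. Libraries with the same number showed no shared deviation there, which cannot exclude a pairing. The striatal treatments share no replicate number, so no block could be fitted there. Of the values recomputed under alternatives that answer a comparison, 118 stayed near the main value and 21 moved. These values were counts of calls and a median correlation, so a reversal of direction was not assessed for them. Depth limits the start-proximal TAPEs under 0.05 CPKM, which were fitted only with no filter.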
